A study of Mus musculus with 29 samples.

Results

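The 10 genes described here are cortical radial glia identity genes, chosen by name. They comprise the transcription factors Pax6, Sox2 and Sox9, the homeodomain gene Hopx and the intermediate filament genes Nes and Vim. The others are the extracellular matrix gene Tnc, the lipid carrier Fabp7, the glutamate transporter Slc1a3 and the surface marker Prom1. All 10 were found by symbol in the count tables of 19 RNA libraries, which list 38355 genes for the untreated and 48709 genes for the treated embryos, and all 10 passed the filter on low counts in both experiments. The embryos were C57BL/6J mice at E17.5 from a line in which Baf155 (Smarcc1) and Baf170 (Smarcc2), scaffold subunits of the chromatin-remodeling BAF complex, are deleted by hGFAP-Cre (dcKO). The untreated experiment held 4 libraries of the letter C and 3 of the letter M, and the treated experiment held 4 libraries each of WT given vehicle (WT vehicle), dcKO given vehicle (dcKO vehicle) and dcKO given a Wnt inhibitor (dcKO Wnt inhibitor). H3K27me3 was profiled in 4 libraries of the letter C and 4 of the letter K. In the sample labels the genotype reads dcKO for all 3 letters, and C is taken here as the control and M and K as the mutant because the study's methods and tables use the letters that way, with heterozygous floxed littermates that carry Cre named as controls. The inhibitor was given to the pregnant mouse and DMSO was the vehicle. Cre under the hGFAP promoter acts first in the medial pallium and later in the dorsal and lateral pallium, so tissue of the whole pallium mixes recombined with unrecombined cells. No label says how many animals went into a library, and p-values measure the spread between these libraries.

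Radial glia are the neural stem cells of the embryonic cortex. Their cell bodies line the ventricle, they carry a long process to the brain surface, and they arise from neuroepithelial cells by taking on glial traits such as a glutamate transporter and a brain lipid-binding protein while keeping the progenitor factors Pax6 and Sox2. Late in gestation they turn from making neurons to making glia, and BAF complexes are among the chromatin regulators that act in them. In bulk tissue, fewer cells of a type and less RNA per cell cannot be told apart, and this holds for every RNA value given here.

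The 19 RNA libraries held between 11946658 and 28391046 counted reads. Levels are given as CPM, the reads of a gene as a share of its library scaled by TMM. The deleted genes were examined first, since they check the labels. Smarcc1 stood at 247, 264, 269 and 248 CPM in C, and at 245, 128 and 135 CPM in M replicates 2, 3 and 4. In the vehicle groups Smarcc1 stood at 245, 266, 299 and 256 CPM in WT and at 136, 242, 133 and 138 CPM in dcKO. The inhibitor libraries held 214, 252, 140 and 173 CPM. Read with Smarcc2, which stood at 654 to 714 CPM in C, the libraries labelled M replicate 2, dcKO vehicle replicate 2, and dcKO Wnt inhibitor replicates 1 and 2 lay above 75% of their control mean for both genes, whereas the remaining mutant libraries other than inhibitor replicate 4 lay at 49.8% to 60.04% of it. Inhibitor replicate 4 lay at 65.1% for Smarcc1 and 80.1% for Smarcc2. These 4 libraries go against their label, and each comparison is given with and without them.

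**Figure D1:**
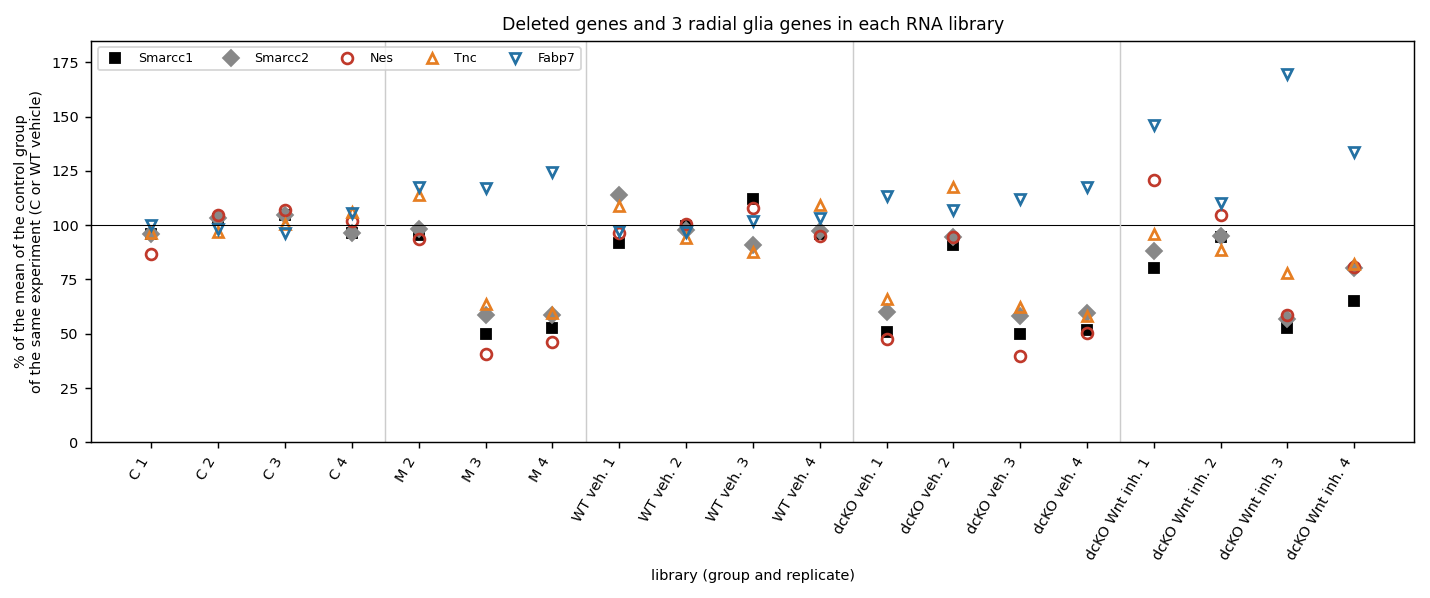
Smarcc1, Smarcc2, Nes, Tnc and Fabp7 in each RNA library, as % of the mean of the control group of the same experiment (y axis, linear; x axis, library by group and replicate). In M replicate 2 and dcKO vehicle replicate 2 the deleted genes, Nes and Tnc lie between 91.1% and 117.6%, in the other M and dcKO vehicle libraries all 4 lie at 65.9% or below, and Fabp7 lies above 100% in every library labelled M, dcKO vehicle or dcKO Wnt inhibitor.

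The untreated and the vehicle experiment were not taken as independent. The deviations of same-numbered libraries from their group mean correlated, over 15220 genes, at 0.20 to 0.55 between C and WT vehicle and at 0.52 to 0.80 between M and dcKO vehicle, and each of the 7 untreated libraries was closest to its own number in the other experiment. Libraries of different number reached at most 0.14 between C and WT vehicle and 0.50 between M and dcKO vehicle. The means of M and dcKO vehicle both include a replicate 2 that goes against its label, and its part in these correlations was not tested. The counts of same-numbered libraries were not identical: their chi-square per degree of freedom was 24.1 to 92.7, far above sampling noise. Pairs of libraries within a group gave 6.35 to 84.3, so by this measure same-numbered libraries were no closer than those. Whether they share animals is not stated, so a pattern seen in both experiments is not counted as a repeat.

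In mm10 with GENCODE M21 the members lie at chr2:105668900-105697364 (Pax6), chr3:34650405-34652461 (Sox2), chr11:112782224-112787760 (Sox9), chr3:87971078-87980451 (Nes), chr2:13573927-13582826 (Vim) and chr10:57784881-57788450 (Fabp7) on the plus strand. On the minus strand lie Slc1a3 (chr15:8634124-8710764), Prom1 (chr5:43993620-44102032), Hopx (chr5:77086988-77115121) and Tnc (chr4:63959785-64047015). All are protein-coding, and counts cover their exons. Levels of different genes were compared as RPKM, the CPM divided by the exon length in kilobases. Fabp7, the brain lipid-binding protein of radial glia, was highest in C at 411 ± 16.4 RPKM (SD, n = 4). Vim, a filament protein of glia and many other cells, stood at 54.1 ± 7.57 RPKM and Tnc, which encodes the matrix glycoprotein tenascin C, at 50.7 ± 2.30 RPKM. Below them came Sox2, a stem cell factor, at 34.9 ± 3.34 RPKM. The glutamate transporter gene Slc1a3 (28.4 ± 2.38 RPKM) and the filament gene Nes (28.3 ± 2.60 RPKM) were next and did not differ beyond their spread. The least abundant members were the gliogenic factor Sox9 at 8.28 ± 0.56 RPKM, Hopx, a homeodomain protein enriched in outer radial glia of other mammals, at 7.09 ± 0.32 RPKM, Prom1, which encodes CD133, at 4.63 ± 0.47 RPKM, and Pax6, the pallial patterning factor, at 4.31 ± 0.69 RPKM. Vim and Tnc, Slc1a3 and Nes, and Prom1 and Pax6 were the neighbours in this order whose means lay closer than the sum of their SDs. In WT vehicle the order differed only in that Nes (28.8 ± 1.70 RPKM) stood above Slc1a3 (25.6 ± 2.41 RPKM).

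Some members share their locus with other genes, and the library kit did not mark strand. Sox2 lies within Sox2ot on the same strand, a gene counted in the treated tables and averaging 55.3 CPM there. Antisense genes Pax6os1 at Pax6 and Hopxos at Hopx averaged at most 0.467 CPM, and none of the others overlapping a member exceeded 3.30 CPM. Reads of Sox2 and Sox2ot that fall in both are therefore uncertain.

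**Figure D2:**
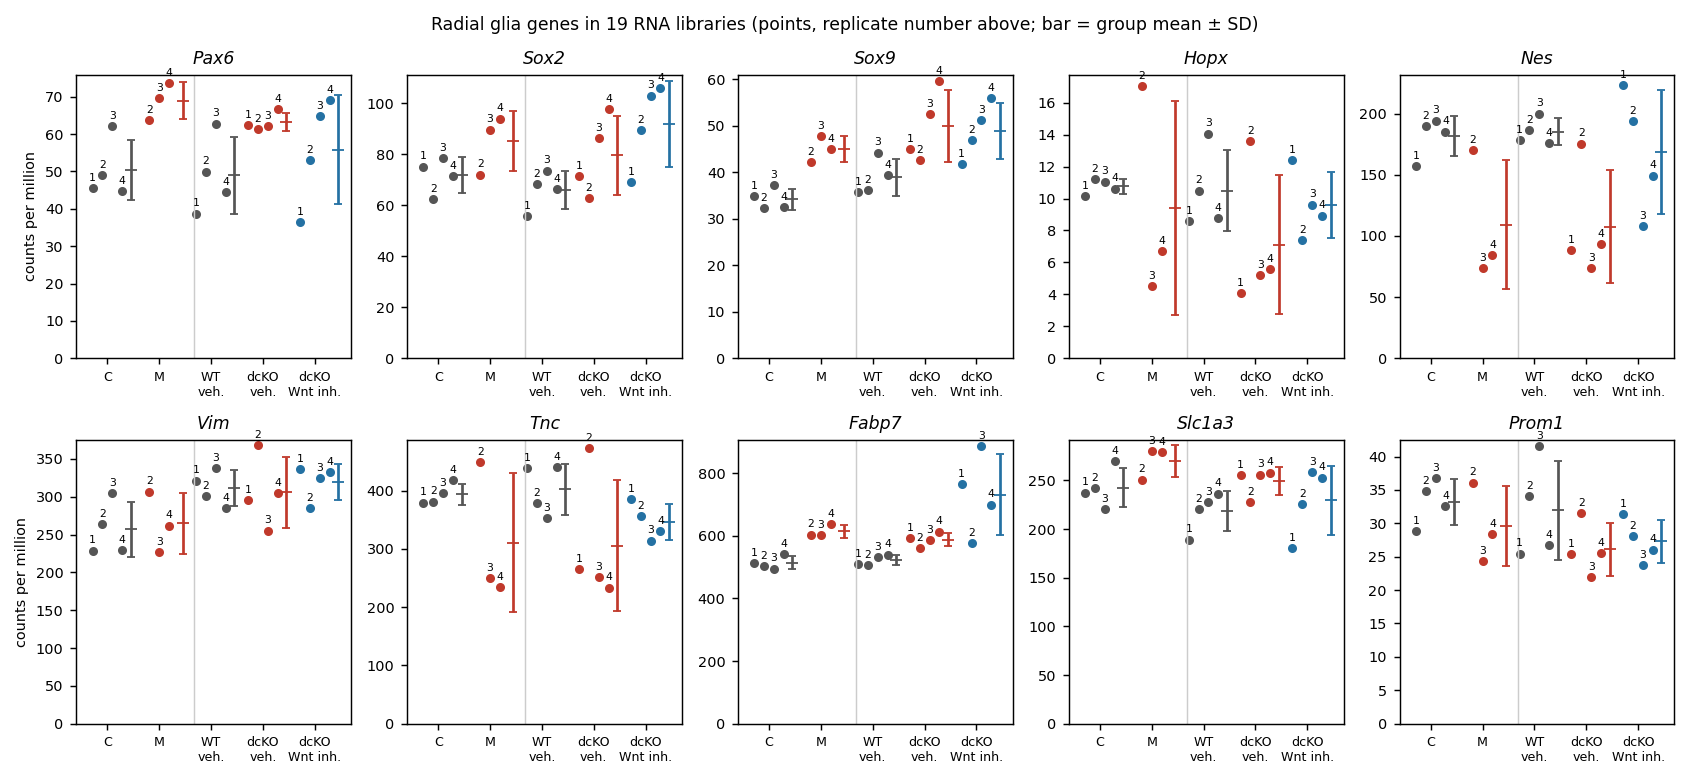
CPM of the 10 radial glia genes (y axes, linear from 0) in each of the 19 RNA libraries (points, replicate number above) in 5 groups (x axis), with the group mean ± SD beside the points. Pax6, Sox9 and Fabp7 lie higher in all 3 M libraries than in any C library, while Nes, Tnc and Hopx fall apart within M and within dcKO vehicle, with replicate 2 far above the others.

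The first comparison set M against C and asked how the genes stood without BAF complexes. With all 7 libraries no member passed the adjusted threshold. Once M replicate 2 was left out, Pax6, Sox2, Sox9 and Fabp7 were higher and Nes, Tnc and Hopx lower. Pax6 held 45.5, 49.1, 62.1 and 44.8 CPM in C and 63.6, 69.6 and 73.7 CPM in M. All M libraries lay above all C libraries, and the log2 fold change was 0.45 ± 0.11 (SE; adjusted p = 0.146, edgeR quasi-likelihood test). Sox9 held 34.8, 32.4, 37.2 and 32.5 CPM in C and 42.1, 47.8 and 45.1 CPM in M, again without overlap (log2 fold change 0.40 ± 0.08, adjusted p = 0.107). Sox2 ran from 62.5 to 78.5 CPM in C and stood at 72.0, 89.6 and 94.0 CPM in M, so that M replicate 2 lay among the controls. Its log2 fold change of 0.25 ± 0.10 had an adjusted p of 0.285.

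Fabp7 held 513, 503, 495 and 542 CPM in C against 603, 601 and 638 CPM in M, with no overlap and a log2 fold change of 0.26 ± 0.06 (adjusted p = 0.134). Slc1a3 ran from 221 to 270 CPM in C and from 251 to 280 CPM in M (0.15 ± 0.08, adjusted p = 0.356). Both are glial genes that radial glia share with astrocytes. Hence 3 of 10 members lay wholly above C, where 6.96% of all 15770 genes tested did, and none lay wholly below, where 6.21% did. For these 3, Pax6, Sox9 and Fabp7, M replicate 2 lay above C too, although its Smarcc1 and Smarcc2 were at control levels. That library held 11946658 reads, the lowest total of the 19 RNA libraries.

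Nes, Tnc and Hopx fell into 2 levels within M. Nes held 157, 190, 194 and 185.2 CPM in C and 170, 73.6 and 84.2 CPM in M. Replicate 2, the library with control levels of Smarcc1 and Smarcc2, lay within the controls, and replicates 3 and 4 lay below all of them. The log2 fold change over all libraries was -0.75 ± 0.29 (adjusted p = 0.276). Tnc behaved alike, with 380, 381, 396 and 418 CPM in C and 449, 250 and 234 CPM in M (-0.34 ± 0.22, adjusted p = 0.484). Hopx held 10.1, 11.2, 11.1 and 10.6 CPM in C and 17.04, 4.51 and 6.71 CPM in M, so that replicate 2 lay above and the other two below every control library (-0.25 ± 0.40, adjusted p = 0.806). Prom1 ran from 28.8 to 36.7 CPM in C and from 24.4 to 36.1 CPM in M (-0.18 ± 0.14, adjusted p = 0.568), and Vim showed the smallest difference, 257 ± 35.9 CPM in C and 265 ± 40.3 CPM in M (0.04 ± 0.13, adjusted p = 0.905).

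After Benjamini-Hochberg adjustment over all genes, 0 of 10 members passed an adjusted p of 0.05 in edgeR, as did 0.00634% of genes in the higher and 0% in the lower direction. At an unadjusted p under 0.05, 4 were higher and 1 lower, against 7.91% and 8.14% of genes, and 6 of 10 had a positive log2 fold change against 51%. Under the study's own limit of an unadjusted p of 0.01, 3 members were higher (Pax6, Sox9 and Fabp7) against a background of 2.66%, and 0 lower against 2.8%. The DESeq2 Wald test passed the same 3 genes at an adjusted p of 0.05, where it called 1.63% of genes higher and 1.89% lower.

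Without M replicate 2, the remaining libraries gave 4 members higher against 5.57% of 16024 genes and 3 lower against 6.88%. Nes fell 1.20 ± 0.10 on the log2 scale, to 0.434 of its C level (adjusted p = 5.7e-05), Tnc by 0.70 ± 0.06 (adjusted p = 0.000103) and Hopx by 0.94 ± 0.16 (adjusted p = 0.0040). Sox9 rose by 0.44 ± 0.08 (adjusted p = 0.00675), Pax6 by 0.51 ± 0.12 (adjusted p = 0.0254), Sox2 by 0.35 ± 0.08 (adjusted p = 0.0219) and Fabp7 by 0.27 ± 0.06 (adjusted p = 0.0204). Slc1a3 (0.20 ± 0.07, adjusted p = 0.110), Prom1 (-0.34 ± 0.11, adjusted p = 0.0786) and Vim (-0.07 ± 0.12, adjusted p = 0.746) did not pass. The median over the 10 members was 0.06 and that over all genes 0.00, since the 2 directions offset each other. This fit rests on 2 M libraries.

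The dcKO vehicle group was compared with the WT vehicle group in one fit of the 12 treated libraries. Nes was the member with the smallest adjusted p and held 178, 186, 200 and 176 CPM in WT and 88.2, 176, 73.6 and 93.2 CPM in dcKO. All dcKO libraries lay below all WT libraries, replicate 2 by less than 1 CPM, and the log2 fold change was -0.78 ± 0.25 (adjusted p = 0.337, edgeR). Tnc held 439, 378, 353 and 440 CPM in WT and 265, 473, 251 and 234 CPM in dcKO (-0.40 ± 0.19, adjusted p = 0.537). Hopx held 8.59, 10.5, 14.1 and 8.79 CPM in WT and 4.10, 13.6, 5.19 and 5.60 CPM in dcKO (-0.55 ± 0.32, adjusted p = 0.640). In both, replicate 2 lay within or above the WT range and the other 3 dcKO libraries below it.

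Among the transcription factors, Sox9 held 35.8, 36.2, 44.2 and 39.4 CPM in WT and 45.0, 42.6, 52.5 and 59.7 CPM in dcKO, where only replicate 2 reached into the WT range (0.36 ± 0.13, adjusted p = 0.374). Pax6 held 38.7, 50.0, 62.8 and 44.6 CPM in WT and between 61.3 and 66.7 CPM in the 4 dcKO libraries. The dcKO values of Pax6 were tighter than those of WT, and 1 WT library overlapped them (0.37 ± 0.18, adjusted p = 0.552). Sox2 ran from 55.9 to 73.6 CPM in WT and from 62.7 to 97.7 CPM in dcKO (0.27 ± 0.16, adjusted p = 0.639). Fabp7 ran from 507 to 540 CPM in WT and from 559 to 613 CPM in dcKO, without overlap (0.17 ± 0.11, adjusted p = 0.706). Slc1a3 (0.19 ± 0.11), Prom1 (-0.29 ± 0.16) and Vim (-0.03 ± 0.11) had adjusted p from 0.622 to 0.989.

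No member passed the adjusted threshold in edgeR here either, where 0.00611% of 16372 genes were called higher and 0% lower, and the DESeq2 test called 0 members, with 0.519% of genes higher and 0.214% lower. Sox9 reached an unadjusted p under 0.05 and was higher, as was Nes in the lower direction, against 4.14% and 5.33% of genes. At 0.01, 0 members were higher and 1 lower, against 1.56% and 1.29%, and 5 of 10 had a positive log2 fold change against 49.3%. One member lay wholly above WT (Fabp7, background 3.08%) and 1 wholly below (Nes, background 2.58%). Without the libraries that go against their label, 3 of 10 members were lower, against 3.34% of 16815 genes, and 0 higher, against 2.47%. Nes fell by 1.12 ± 0.13 on the log2 scale (adjusted p = 0.000684), Tnc by 0.69 ± 0.10 (adjusted p = 0.0032) and Hopx by 1.07 ± 0.20 (adjusted p = 0.0096). Sox9 (0.43 ± 0.12, adjusted p = 0.0668), Sox2 (0.37 ± 0.12, adjusted p = 0.140), Pax6 (0.38 ± 0.14, adjusted p = 0.188) and Fabp7 (0.19 ± 0.09, adjusted p = 0.356) did not pass. Leaving out dcKO vehicle replicate 2 by itself called the same 3 genes lower, against 2.06% of 16526 genes, and 0 higher, against 1.34%. Of the treated libraries, WT and dcKO vehicle replicates 1 and 2 were in one sequencing lane and replicates 3 and 4 in another. Inhibitor replicate 1 was in the first of these lanes, replicates 2 and 3 in the second, and replicate 4 in a lane without vehicle libraries. In the untreated experiment M replicate 4 was in a lane apart from all other libraries. Nes averaged 182 and 132 CPM in the WT and dcKO vehicle libraries of the first lane and 188 and 83.4 CPM in those of the second. The first-lane dcKO mean pools replicate 1 at 88.2 CPM with replicate 2, which goes against its label, at 176 CPM.

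**Figure D3:**
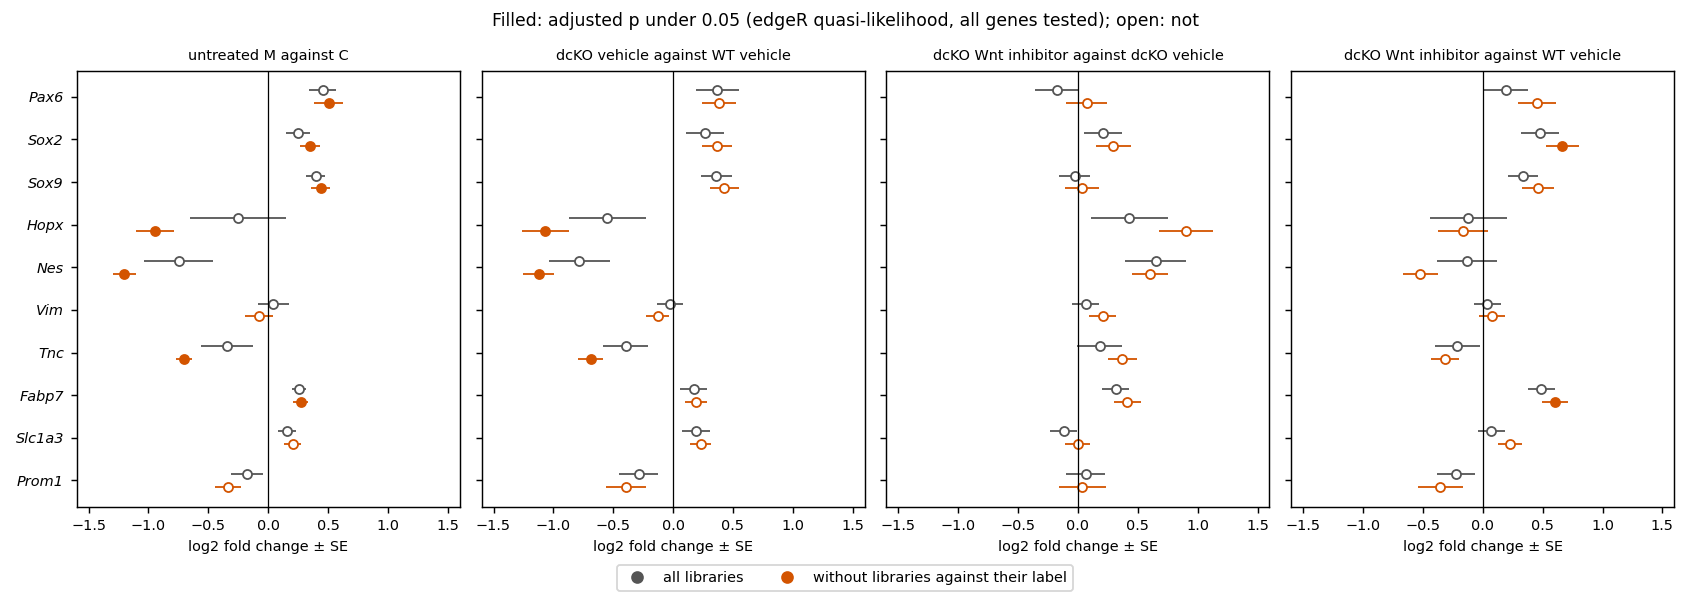
Log2 fold change ± SE (x axis) of the 10 radial glia genes (y axis) in 4 comparisons, with all libraries (grey) and without the libraries that go against their label (orange), filled where the adjusted p is under 0.05. Without M replicate 2, 7 of 10 genes are filled in the untreated comparison, and without the doubted libraries Nes, Tnc and Hopx are filled for dcKO vehicle against WT vehicle and Sox2 and Fabp7 for dcKO Wnt inhibitor against WT vehicle.

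The genotype difference of the untreated and that of the vehicle experiment were compared by an interaction term over all 19 libraries. The largest member difference was that of Hopx, 0.30 ± 0.52 on the log2 scale, and the adjusted p was 0.9999 for each of the 10 genes (edgeR). For Nes the difference was 0.03 ± 0.39, for Tnc 0.05 ± 0.29, and for Pax6 0.08 ± 0.25. No member passed the adjusted threshold, as did 0% of genes. No member reached an unadjusted p of 0.01, against 0.0433% and 0.0557% of genes, or of 0.05, against 0.248% of 16156 genes with a positive and 0.254% with a negative difference, and the DESeq2 test called 0 members too. With the same-numbered libraries of both experiments as a replicate block, again 0 members were called, and the difference of Nes was -0.04. The main fit treated all 19 libraries as independent, which the correlations given above put in doubt. Fewer genes than the nominal share reached an unadjusted p of 0.05 in it. The lack of calls therefore does not show that the genotype differences of the experiments are equal.

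The inhibitor comparison asked whether blocking Wnt signaling moved the genes in the dcKO pallium. Nes held 224, 194, 108 and 149 CPM with the inhibitor against 88.2, 176, 73.6 and 93.2 CPM with vehicle. The groups overlapped only through dcKO vehicle replicate 2, and the log2 fold change was 0.65 ± 0.25 (adjusted p = 0.257, edgeR). Fabp7 held 764, 576, 886 and 699 CPM against 593, 559, 586 and 613 CPM, where inhibitor replicate 2 lay among the vehicle libraries (0.32 ± 0.11, adjusted p = 0.229). Hopx held 12.4, 7.41, 9.62 and 8.93 CPM with the inhibitor (0.43 ± 0.32, adjusted p = 0.535). For Tnc the inhibitor libraries ran from 314 to 386 CPM, between the dcKO vehicle libraries 1, 3 and 4 and the library of replicate 2 (0.18 ± 0.19, adjusted p = 0.667). Sox2 (0.21 ± 0.16), Pax6 (-0.18 ± 0.18), Sox9 (-0.03 ± 0.13), Slc1a3 (-0.12 ± 0.11), Prom1 (0.06 ± 0.16) and Vim (0.06 ± 0.11) had adjusted p from 0.535 to 0.938.

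In this comparison edgeR called 0 members, against 0.0428% of genes higher and 0.0122% lower, and DESeq2 called 0 members, against 1.06% and 1.01%. Nes and Fabp7 reached an unadjusted p under 0.05 upward, against 7.85% of genes upward and 8% downward. At 0.01 there were 0 members, against 2.44% and 2.2%. No member lay wholly above or below dcKO vehicle, against 4.48% and 4.03%, and 7 of 10 had a positive log2 fold change against 51.8%. Without dcKO vehicle replicate 2, Nes rose by 0.99 ± 0.20 (adjusted p = 0.0370), against 0.635% of genes called higher and 0.454% lower. Hopx (0.95 ± 0.22, adjusted p = 0.0567) and Tnc (0.47 ± 0.11, adjusted p = 0.0597) fell short of the threshold there. Without inhibitor replicate 2, Fabp7 rose by 0.41 (adjusted p = 0.0406), where 0.86% of 16621 genes were called higher and 1.67% lower. Without all 3 treated libraries that go against their label, which leaves inhibitor replicates 3 and 4 and dcKO vehicle replicates 1, 3 and 4, no member passed, against 0.303% of genes higher and 0.72% lower. Nes stood at 0.60 ± 0.15 (adjusted p = 0.0777), Hopx at 0.90 ± 0.22 (adjusted p = 0.0802), Fabp7 at 0.41 ± 0.11 (adjusted p = 0.103) and Tnc at 0.37 ± 0.12 (adjusted p = 0.148).

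Against WT vehicle, Fabp7 held 576 to 886 CPM in the inhibitor libraries and 507 to 540 CPM in WT. The groups did not overlap (0.49 ± 0.11, adjusted p = 0.0812, edgeR). Sox2 held 69.2, 89.4, 103 and 106 CPM with the inhibitor and 55.9, 68.4, 73.6 and 66.3 CPM in WT, where 1 inhibitor library fell within the WT range (0.48 ± 0.16, adjusted p = 0.146). Sox9 averaged 49.0 ± 6.03 CPM with the inhibitor and 38.9 ± 3.89 CPM in WT (0.33 ± 0.13, adjusted p = 0.186). Nes differed by -0.13 ± 0.25 (adjusted p = 0.797) and Tnc by -0.22 ± 0.19 (adjusted p = 0.547). Again 0 members passed in edgeR (0.0611% of genes higher and 0.0366% lower), and DESeq2 called Fabp7, with 2.01% of genes higher and 2.69% lower. Of the members, 3 reached an unadjusted p under 0.05 and were higher and 0 lower (9.53% and 10.2% of genes), and at 0.01, 2 were higher and 0 lower (3.01% and 3.71%). One member lay wholly above WT and 0 below (3.48% and 4.02%), and 6 of 10 had a positive log2 fold change (50.8%). Without dcKO vehicle replicate 2, whose spread enters the fit, 0 members passed (0.381% and 0.399%). Without inhibitor replicate 2, Fabp7 was the member that passed (0.58, adjusted p = 0.0062), against 3.39% of genes higher and 5.35% lower. Without the libraries that go against their label, Fabp7 (0.60 ± 0.11, adjusted p = 0.0102) and Sox2 (0.66 ± 0.14, adjusted p = 0.0208) were higher, against 2.66% of genes, and 0 members lower, against 4.72%. Nes then stood at -0.52 ± 0.14 (adjusted p = 0.0557), in 2 inhibitor libraries. The comparisons with WT vehicle and with dcKO vehicle share the inhibitor libraries.

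Markers of other tissues varied among the treated libraries. The 5 choroid plexus markers (Ttr, Folr1, Clic6, Kl and Otx2) summed to 837, 160, 476 and 11.04 CPM with the inhibitor, 6.55 to 10.4 CPM in dcKO vehicle and 5.95 to 125 CPM in WT vehicle, and 5 of 5 had a positive log2 fold change over dcKO vehicle. Otx2, a factor of the choroid plexus and the cortical hem, was the marker on any list that passed against WT vehicle with all libraries (1.64 ± 0.26, adjusted p = 0.0464, edgeR). The 5 ganglionic eminence markers (Dlx1, Dlx2, Gsx2, Nkx2-1 and Gad2) summed to 429, 544, 488 and 583 CPM with the inhibitor, 439, 273, 467 and 459 CPM in dcKO vehicle and 323 to 378 CPM in WT vehicle. In dcKO vehicle, replicates 1, 3 and 4 thus lay above WT and among the inhibitor libraries, and replicate 2 lay below both. Meningeal markers summed to 15.9, 9.53, 12.2 and 27.7 CPM with the inhibitor, 9.04 to 11.3 CPM in dcKO vehicle and 7.93 to 29.6 CPM in WT vehicle. No marker on any list was at 0 in any library. The part of these tissues in the radial glia values of the inhibitor libraries was not tested.

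Markers of neurons and of other cell types of the pallium also varied across the genotype groups. Of 10 neuron markers, 9 had a negative log2 fold change in M, as did 7727 of all 15770 genes, and 10 in dcKO vehicle, as did 8306 of 16372, with no marker past the adjusted threshold. Their sum ran from 8715 to 10500 CPM in M and 10150 to 11100 CPM in C. Without M replicate 2, where 5.57% of all genes were called higher and 6.88% lower, 5 of 10 neuron markers were lower and 3 of 5 ganglionic eminence markers higher. Intermediate progenitor markers summed to 239 to 359 CPM in C, to 405 CPM in M replicate 2, above all controls, and to 198 and 234 CPM in M replicates 3 and 4, below all of them. Without replicate 2, 1 of 5 was called, Eomes, the factor of intermediate progenitors, which was lower (-0.93 ± 0.21, adjusted p = 0.0318). The list had no common direction in that fit. The log2 fold change was positive for 3 of 5 and negative for 2, with a median of 0.09. Maturing astrocyte markers summed to 91.8 to 131 CPM in C and 86.8 to 105 CPM in M, and without replicate 2 the glial filament gene Gfap (-0.83 ± 0.20, adjusted p = 0.0261) and the water channel gene Aqp4 (-1.21 ± 0.32, adjusted p = 0.0377) were lower. Of the 5 oligodendrocyte precursor markers 1 was called in that fit, Pdgfra, which was higher (0.60 ± 0.12, adjusted p = 0.0122). The other 4 had a negative log2 fold change. For dcKO vehicle against WT vehicle without the libraries against their label, 2.47% of genes were higher and 3.34% lower. There Eomes (-0.94 ± 0.17, adjusted p = 0.0083) and Aqp4 (-1.36 ± 0.26, adjusted p = 0.0129) were again lower and Pdgfra higher (0.76 ± 0.11, adjusted p = 0.0026). The log2 fold change was positive for 3 of 5 intermediate progenitor markers and negative for 2. It was positive for 2 of 5 oligodendrocyte precursor markers and negative for 3. In the same fit 3 of 10 neuron markers were lower and 1 of 5 ganglionic eminence markers higher. Endothelial, meningeal and microglial markers were called in 0 cases in these fits. The part of these cell types in the members' values was not tested.

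A second list of 20 genes of the radial glia program (Notch targets, patterning factors, metabolic and membrane genes) showed the same lack of one direction. With all libraries 0 of 20 passed in M against C and in each treated comparison, and the median log2 fold change was 0.05 in M against C and 0.03 in dcKO vehicle against WT vehicle. Without M replicate 2, 5 of 20 were higher and 4 lower, against 5.57% and 6.88% of all genes. The genes named from here on in this paragraph were chosen after their values were seen. Tfap2c, the transcription factor AP2 gamma, rose by 1.681 ± 0.16 (adjusted p = 0.000193), Mfge8 by 0.92 ± 0.06 and the Notch target Hes5 by 0.71 ± 0.11, together with Ednrb and Ttyh1. Aldoc, the glial aldolase, fell by 1.72 ± 0.07 on the log2 scale (adjusted p = 4.85e-07), with Lhx2, Emx2 and Mt3. For dcKO vehicle against WT vehicle without the doubted libraries, 2 of 20 were higher (Tfap2c and Mfge8) and 4 lower (Aldoc, Lhx2, Mt3 and Phgdh), against 2.47% and 3.34% of all genes. Against dcKO vehicle the inhibitor libraries so restricted, with 0.303% of all genes higher and 0.72% lower, had Aldoc (0.94 ± 0.15, adjusted p = 0.0296) and Lhx2 (0.61 ± 0.11, adjusted p = 0.0387) higher and the glutamate transporter gene Slc1a2 lower (-0.71 ± 0.14, adjusted p = 0.0419).

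Likeness between genes was measured as the root mean square difference of log2 CPM, each centred on the control mean of its experiment, over 19 libraries and 15220 genes. Nes was most like Slc9a3r1 (0.156) and Mfng (0.161), Tnc most like B3gat1 (0.1001) and Klhl25 (0.104), and Hopx most like Id2 (0.163) and Gm17750 (0.204). Sox2 was the member with another radial glia gene nearest, Sox1 (0.132), followed by Sox9 (0.134). For Sox9 the nearest were Ss18 (0.0892) and Hey1 (0.113), for Pax6 Ttc23 (0.0983) and Wwtr1 (0.108), and for Fabp7 Cyb5a (0.0945) and Ndufaf7 (0.103). Vim (Cdk4 and Bub3), Slc1a3 (Lman1 and Cipc) and Prom1 (Pam and Dpy19l1) lay at most 0.115 from theirs. The members' own distance from their controls was largest for Nes (0.634), Hopx (0.592) and Tnc (0.385) and smallest for Vim (0.152).

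H3K27me3, the repressive mark set by Polycomb complexes, was read from broad peaks called in each of 8 libraries. Peaks were merged over libraries, regions marked in 2 or more were kept, and 8 such regions lay at 7 of 10 members, and the height of a region is its fold enrichment over input, set at 1 where a library had no peak. The Pax6 region, chr2:105658608-105692564 (mm10), was the longest at 33957 bp and covered the gene start. Pax6 was enriched in every library, at 8.75, 5.20, 5.79 and 4.6 fold in C and 7.23, 5.94, 5.31 and 8.59 fold in K. Its K and C values overlapped (log2 difference 0.17 ± 0.63, adjusted p = 1, limma). Regions at Sox2 (10579 bp), Sox9 (3526 bp) and Nes (3988 bp) covered the gene start too, and each had a peak in 6 of 8 libraries. In the Nes region, chr3:87970440-87974427, the enrichment was 5.17, 3.15 and 3.32 fold in C and 6.80, 3.58 and 6.70 fold in K, with no peak in C replicate 3 and K replicate 2. Over the 4 libraries of each group its difference was 0.40 ± 0.89 (adjusted p = 1).

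Fewer libraries carried the mark at the other members. The start of Prom1 had a peak in 4 of 8 libraries and that of Tnc in 3, of which 2 were K replicates 3 and 4. At Hopx a region within the gene had a peak in 5 libraries and one upstream of it in 3, and neither covered the outermost start. Vim, Fabp7 and Slc1a3, the glial members at the second, the first and the fifth place in RPKM in C, had no region. Of the 8 regions, 7 were higher in K on average, but 0 of 8 passed an adjusted p of 0.05 or reached an unadjusted p of 0.05 in limma, against 0% of 22220 regions called in each direction and 0.221% at an unadjusted p under 0.05. The share of all 22220 regions that were higher in K was not counted, so 7 of 8 is not read as particular to the members. C replicate 3 and K replicate 2 lacked peaks at every member except Pax6. After the authors' removal of duplicates 12.3% of tags remained in C replicate 3 and 18.0% in K replicate 2. C replicate 1 and K replicate 1 kept 13.7% and 16% and had peaks in 7 and 5 of the 8 regions, and the other libraries kept 32.8% to 66.5%. The number of peaks ranged from 6674 to 46000. The part of depth in the missing peaks was not tested. Without C replicate 3, 4 of 8 regions were higher in K.

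**Figure D4:**
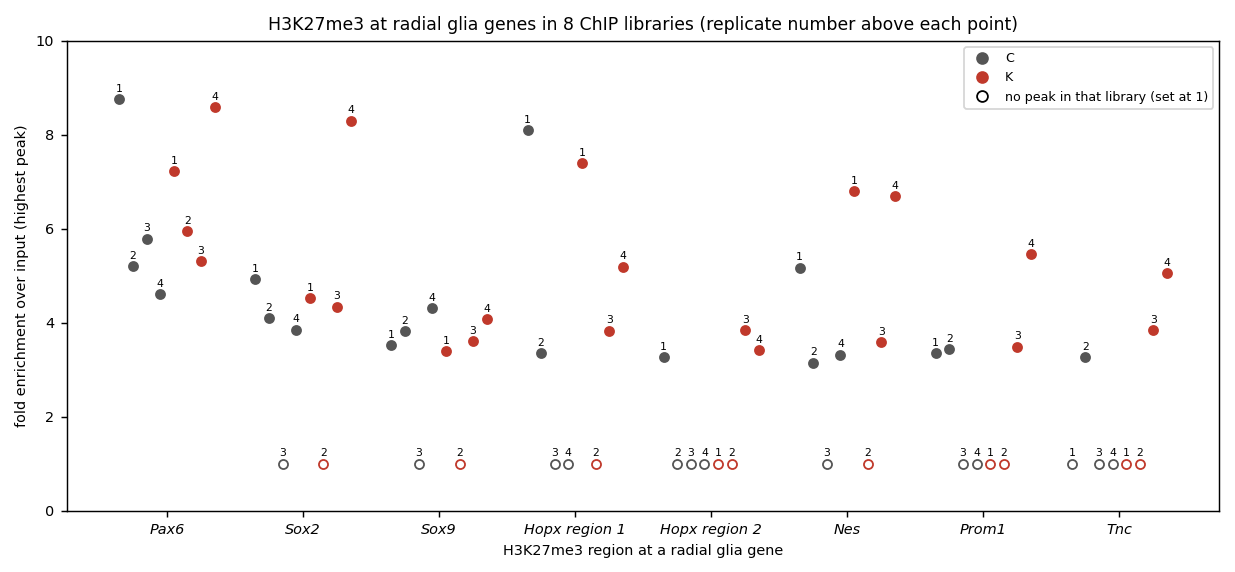
Fold enrichment over input (y axis, linear from 0) of the highest H3K27me3 peak in 8 regions at 7 radial glia genes (x axis) in 4 C and 4 K libraries (points, replicate number above), with open points at 1 for a library without a peak. Pax6 is enriched in all 8 libraries, and the C and K points overlap in every region.

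Promoter windows are shown for 4 members that differ in the mark and in direction. Pax6 and Nes lie in H3K27me3 regions and had log2 fold changes of opposite sign in M and in dcKO vehicle. With all libraries neither passed the adjusted threshold in edgeR. Tnc carried the mark in few libraries, and Fabp7 had none. Each is the 300 bases of RefSeq (GRCm38.p6, the same build as mm10) from 250 before to 50 after the gene start, written 5′ to 3′ on the gene's strand, and capitals mark CpG, the motif searched on both strands (letters CG, which read alike on either).
Pax6: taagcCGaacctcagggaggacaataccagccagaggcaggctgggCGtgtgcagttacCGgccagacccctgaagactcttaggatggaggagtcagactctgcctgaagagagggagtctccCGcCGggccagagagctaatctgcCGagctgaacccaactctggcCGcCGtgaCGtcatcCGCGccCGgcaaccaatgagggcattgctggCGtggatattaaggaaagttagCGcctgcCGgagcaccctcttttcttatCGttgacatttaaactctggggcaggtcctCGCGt
Nes: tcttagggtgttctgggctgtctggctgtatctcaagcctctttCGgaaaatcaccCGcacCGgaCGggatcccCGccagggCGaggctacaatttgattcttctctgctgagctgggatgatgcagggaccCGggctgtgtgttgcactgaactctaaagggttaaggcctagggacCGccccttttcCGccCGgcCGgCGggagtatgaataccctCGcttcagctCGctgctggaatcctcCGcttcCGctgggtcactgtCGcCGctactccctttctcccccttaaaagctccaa
Tnc: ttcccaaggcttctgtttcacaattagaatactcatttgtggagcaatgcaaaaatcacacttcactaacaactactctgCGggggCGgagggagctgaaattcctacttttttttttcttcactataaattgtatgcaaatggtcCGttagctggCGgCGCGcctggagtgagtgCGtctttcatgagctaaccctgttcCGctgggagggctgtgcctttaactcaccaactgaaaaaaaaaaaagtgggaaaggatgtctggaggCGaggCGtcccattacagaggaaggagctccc
Fabp7: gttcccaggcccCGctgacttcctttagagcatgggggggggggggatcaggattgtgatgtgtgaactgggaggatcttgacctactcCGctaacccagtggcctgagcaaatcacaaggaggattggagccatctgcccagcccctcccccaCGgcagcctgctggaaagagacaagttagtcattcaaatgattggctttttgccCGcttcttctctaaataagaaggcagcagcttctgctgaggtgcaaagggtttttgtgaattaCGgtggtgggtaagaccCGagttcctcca
The Pax6 window lies at chr2:105668646-105668945 on the plus strand, the Nes window at chr3:87970843-87971142 on the plus strand, the Tnc window at chr4:64046966-64047265 on the minus strand and the Fabp7 window at chr10:57784673-57784972 on the plus strand. CpG was counted 18 times at Pax6 and 18 times at Nes, a number reached by 29.7% of all 32851 promoter windows. The Tnc window shown held 10 (43.5% of windows hold as many or more), a window of another Tnc start, chr4:64046887-64047186, held 16 (33%), and Fabp7 held 6 (56.4%). Windows were held for 9 of 10 members, 13 in all since some genes have 2 starts, and Sox9 was not among them. The Sox2 window had the most CpG (27), the Slc1a3 window the fewest (3), and that of Vim had 11. An H3K27me3 region overlapped 8 of these 13 windows and 15.1% of all windows, and the 5 member windows outside a region were those of Vim, Fabp7, Slc1a3, the outermost start of Hopx and the downstream start of Prom1. This is a description of letters and overlap, with no test.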

How the data were processed

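RNA was sequenced from 19 pallium libraries and H3K27me3 from 8. The deposited counts are whole reads per gene, made by the authors with STAR on mm10 and featureCounts, from a kit that does not mark strand. Rows that name no gene held 0 reads and were left out. The deposited peak tables were called per library by the authors with MACS2 2.1.0.20140616 (broad peaks, q limit 0.1, one pooled input per letter) and give the fold enrichment over input as a ratio, the pileup as a signal and the -log10 q-value. The input libraries and other columns were not used here.

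Counts were tested with edgeR 4.0.16 (TMM, filterByExpr, robust quasi-likelihood fit, R 4.3.3), the untreated libraries in one fit, the treated in another and all 19 for the interaction, with Benjamini-Hochberg adjustment over all genes tested. CPM were scaled by TMM, with a prior count of 2 for log2 values. DESeq2 1.42.0 was an alternative. Peaks were merged across libraries and regions within 2000 bp of a start, or overlapping a gene, were assigned to it. Differences in log2 enrichment were tested in limma 3.58.1. The tests were checked on simulated data with one fixed spread, no mutant library at control levels and no missing peaks. That check does not cover these features of the real libraries.

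The members and lists were chosen with earlier results of these data known. The text names the 10 members, Smarcc1 and Smarcc2, list genes with an adjusted p under 0.05 in the comparison described, and the 2 genes nearest to each member. Replicate numbers did not pair the groups within an experiment, but every same-numbered pair across the experiments correlated above 0.2, the data being the only source for that pairing. The library depth, 11946658 to 28391046 reads, limits low genes most, and intervals between libraries may be technical. Alternatives were another scaling, no filter, the replicate block, lane, only the groups compared, other peak limits, leaving out each library and, chosen after seeing the data, leaving out all libraries against their label and a block across the experiments.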

Additional observations from a re-analysis of the deposited data

Results flagged for a closer look

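Of 64 groups of 4 libraries examined, 7 held a library whose gap to its nearest neighbour was beyond Dixon's 95% critical value. Chance gives this in about 1 in 20 independent groups of measured values. Of the 7, 5 were dcKO vehicle replicate 2. It stood at 13.6 CPM for Hopx (next library 5.60 CPM), at 473.3 CPM for Tnc (next 265 CPM) and at 228 CPM for Slc1a3, where it was the lowest (next 256 CPM). The deleted genes stood at 242 CPM for Smarcc1 (next 138 CPM) and 692 CPM for Smarcc2 (next 439 CPM) in the same library. The other two were H3K27me3 regions where a single C library had a peak: C replicate 1 upstream of Hopx and C replicate 2 at the start of Tnc, each at 3.26 fold enrichment, with the remaining C libraries set at 1. A group with 1 peak and the remaining libraries set at 1 always passes this limit, and the other 5 flags share 1 library. The rate of 1 in 20 therefore does not apply to the 7. These values were not weighed further, and groups of 3 libraries, M among them, were not examined this way.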

How the results depend on the processing

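Of 398 recomputed counts of members, 349 stayed within 1.5 times the reported count and 49 moved. The 349 include counts of 0 that stayed at 0. Of 930 recomputed log2 fold changes, 853 kept their direction and side of the threshold, 54 turned direction and 23 passed the threshold anew. The number that lost it, 0, was fixed in advance, since no member passed the threshold in the main fits. Of the mean CPM, 50 of 50 moved by less than 1 SD. The cause was not tested where a value moved, except that leaving out libraries lowers n.

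At an adjusted p under 0.05, members higher in M against C numbered 1 with no filter (0.338% of all genes) and 3 with DESeq2 (1.63%) where 0 were reported, and those higher with the inhibitor against WT vehicle 1 with DESeq2 (2.01%) and 2 without the libraries against their label (2.66%) where 0 were reported. Members lower in dcKO vehicle against WT vehicle numbered 3 without those libraries (3.34%) where 0 were reported. At an unadjusted p under 0.01, members higher in dcKO vehicle numbered 1 with no filter (331 of 31309 genes), DESeq2 (342 of 16372) or lane as a term (257 of 16372). Without those libraries the number was also 1 (652 of 16815 genes), and 0 were reported. Members lower numbered 0 with no filter (276 of 31309 genes) and 3 without those libraries (877 of 16815), where 1 was reported. Inhibitor against dcKO vehicle gave 1 higher with DESeq2 (521 of 16372 genes) and 3 without those libraries (458 of 16815), where 0 were reported. Inhibitor against WT vehicle gave 1 higher with DESeq2 size factors (483 of 16372 genes) or lane (489 of 16372), where 2 were reported. Without those libraries it gave 1 lower (1207 of 16815 genes), where 0 were reported.

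With the replicate number as a block, the pairing being only a shared number within experiments, M against C had 1 member higher at an unadjusted p under 0.01 (131 of 15770 genes, 3 reported) and dcKO vehicle against WT vehicle 1 (292 of 16372 genes, 0 reported), Vim turned to -0.0074 in M against C, and the interaction of Nes to -0.0453. The H3K27me3 regions under the block, like every other setting there, gave 0 member calls. Same-numbered C and M libraries correlated at -0.336 to -0.0333, and 0 of 3 correlated best with their own number. With the block across the experiments, the interactions of Sox9, Nes and Tnc turned to -0.014, -0.0424 and -0.0075. Without the libraries against their label they were -0.0010, -0.0893 and -0.0222, and Pax6 and Sox9 stood at 0.0723 and 0.0339 for inhibitor against dcKO vehicle. With lane as a term Slc1a3 turned to -0.0202 against WT vehicle.

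Leaving out 1 library at a time gave 0 to 4 members higher and 0 to 3 lower in M against C at an adjusted p under 0.05. These fits called 0% to 5.57% of all genes higher and 0% to 6.88% lower. At an unadjusted p under 0.01 they gave 1 to 4 and 0 to 3 members, with 148 to 1055 genes higher and 119 to 1291 lower. For dcKO vehicle against WT vehicle they gave 0 to 3 members lower at the adjusted threshold, with 0% to 2.06% of genes lower. At the unadjusted threshold they gave 0 to 1 higher and 0 to 3 lower, with 129 to 481 genes higher and 60 to 714 lower. For the inhibitor against dcKO vehicle they gave 0 to 1 higher (0% to 0.86% of genes) and 0 to 3 higher (213 to 658 genes) at these thresholds. For the inhibitor against WT vehicle they gave 0 to 1 higher (0% to 3.39% of genes) and 1 to 3 higher (282 to 950 genes). Directions that turned spanned -0.943 to 0.102 (Hopx) and -0.0747 to 0.145 (Vim) in M against C, and -0.127 to 0.0521 (Vim) in dcKO vehicle. Against dcKO vehicle they spanned -0.0988 to 0.0624 (Sox9), -0.0151 to 0.164 (Vim) and -0.0114 to 0.166 (Prom1). Against WT vehicle the inhibitor gave -0.266 to 0.0399 (Hopx), -0.30 to 0.0377 (Nes) and -0.0040 to 0.0880 (Vim). The interaction spanned -0.0648 to 0.196 (Pax6), -0.128 to 0.0860 (Sox2), -0.0433 to 0.124 (Sox9), -0.395 to 0.815 (Hopx), -0.423 to 0.371 (Nes), -0.0505 to 0.161 (Vim), -0.0866 to 0.0220 (Slc1a3), -0.0477 to 0.229 (Prom1) and -0.307 to 0.334 (Tnc).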
